A study of Mus musculus with 6 samples.

Results

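The insulin-like growth factor (IGF) system was followed in cultured mouse aortic endothelial cells through 9 genes: the ligand Igf1, its receptor Igf1r, the binding proteins Igfbp2, Igfbp3, Igfbp4, Igfbp5, Igfbp6 and Igfbp7, and the protease gene Pappa. Every probe set that the array annotation assigns to one of these genes was taken, without regard to its signal, which gave 27 of the 45037 probe sets that are not array controls. The transgenic cultures came from mice that carry dominant negative human PPARG with the V290M change, expressed from the endothelial CDH5 (vascular endothelial cadherin) promoter, and the non-transgenic cultures came from mice without it. PPARG is a nuclear receptor that switches on genes of fatty acid handling. All mice were of strain C57 by the labels, no culture was treated, and the labels used here give no age. Each culture pooled the cells of 2 mice, and 3 of 5 cultures per group were put on Affymetrix mouse genome arrays, so that n = 3 in each group. Each value below is a probe set's MAS5 signal on a linear scale as the authors deposited it, or log2(signal + 16), and every difference is transgenic minus non-transgenic on that log2 scale.

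IGF1 is a secreted growth factor that binds the receptor tyrosine kinase IGF1R, which signals through insulin receptor substrates to PI3-kinase and AKT and promotes growth and survival. Outside the cell most IGF is held by binding proteins, which keep it from the receptor, and the protease pregnancy-associated plasma protein A, the product of Pappa, cuts IGFBP4 and so frees bound IGF. In the vessel wall this system is known for its effects on the growth of smooth muscle cells and on the survival of endothelial cells.

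Promoter sequences from RefSeq (GRCm38.p6) were matched for 8 of the 9 genes. The 250 bases before the start given there are shown 5′ to 3′ for Igf1, Igfbp3 and Igfbp4, whose signals lay lower in transgenic replicates 1 and 2, and for the receptor gene Igf1r, whose signals did not separate the groups. Capitals mark the nuclear receptor half-site AGGTCA, or TGACCT on the other strand, and the TATA box TATAAA, or TTTATA on the other strand.
Igf1, chr10:87860861-87861110, strand +: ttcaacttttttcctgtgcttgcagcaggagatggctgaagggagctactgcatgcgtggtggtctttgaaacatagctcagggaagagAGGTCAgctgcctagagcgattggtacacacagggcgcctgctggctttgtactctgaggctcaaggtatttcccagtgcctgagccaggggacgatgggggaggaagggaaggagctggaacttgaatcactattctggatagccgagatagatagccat
Igfbp3, chr11:7213924-7214173, strand -: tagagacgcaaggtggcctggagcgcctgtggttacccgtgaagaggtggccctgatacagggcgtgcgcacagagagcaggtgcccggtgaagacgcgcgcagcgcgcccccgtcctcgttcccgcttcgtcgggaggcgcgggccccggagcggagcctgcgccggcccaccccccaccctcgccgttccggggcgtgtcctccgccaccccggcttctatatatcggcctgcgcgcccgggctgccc
Igfbp4, chr11:99040994-99041243, strand +: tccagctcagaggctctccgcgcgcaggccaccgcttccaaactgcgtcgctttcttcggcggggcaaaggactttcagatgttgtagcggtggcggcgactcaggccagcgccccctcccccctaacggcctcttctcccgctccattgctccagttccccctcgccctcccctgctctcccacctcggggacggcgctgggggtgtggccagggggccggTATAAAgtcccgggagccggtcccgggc
Igf1r, chr7:67952007-67952256, strand +: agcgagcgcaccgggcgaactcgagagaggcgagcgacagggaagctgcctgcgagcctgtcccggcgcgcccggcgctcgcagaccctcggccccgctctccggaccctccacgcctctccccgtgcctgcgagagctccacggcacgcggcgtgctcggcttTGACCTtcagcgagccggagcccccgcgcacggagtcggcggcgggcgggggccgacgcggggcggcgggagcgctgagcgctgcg
The Igf1 stretch held 1 half-site, whose first base lay 161 bases before the start, and the Igf1r stretch held 1 on the other strand, 86 bases before the start. The Igfbp4 stretch held a TATA box 28 bases before the start. Among 32851 promoter stretches of the same length, the half-site was found in 14.0% and the TATA box in 12.4%. These matches describe the letters of the windows alone.

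The arrays were scaled alike, with a mean signal near 1500 once the lowest and highest signals were set aside, and their median signals ran from 173.0 to 186.1 in the transgenic and from 219.9 to 222.9 in the non-transgenic group. Transgenic replicate 3 resembled the non-transgenic cultures more than its own group. Over genes, its rank correlation averaged 0.907 with the other transgenic arrays and 0.972 with those of the non-transgenic group. The counts of probe sets and genes that limma called, and that of IGF probe sets with no overlap, are therefore given with and without that array, and the other counts hold all 6 arrays. Because that array was set apart by its likeness to the non-transgenic group, leaving it out favours larger differences over the whole array. limma called 0 of all 22519 tested probe sets with it and 4023 without it. The adjusted p-values without transgenic replicate 3 are thus descriptive only. Of 15 endothelial markers 5 had means above the level filter, Tek, Emcn, Eng, Flt1 and Cd34, while 12 of 12 fibroblast markers did. Another 9 of the 15 stayed under the filter on every array, among them Cdh5, Pecam1 and Nos3. The summed signal of the 15 was 11901, 15129 and 13812 in the transgenic cultures, against 12698, 9986 and 9863 in the non-transgenic cultures, and the groups overlapped. The Gapdh controls gave a 3′ over 5′ ratio, which reflects how complete the transcripts are, of 1.35, 1.20 and 1.44 in the transgenic cultures and 1.71, 1.55 and 1.51 in the non-transgenic cultures, with no overlap.

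The comparison asked how the genes of this system differ between cultures of transgenic and non-transgenic mice. Igf1, Igfbp3, Igfbp4 and Pappa had their lowest signals in the transgenic cultures, while Igf1r, Igfbp6 and Igfbp7 differed by less than 0.3 in size on the log2 scale on every tested probe set. A probe set was tested where its mean over the 6 arrays reached a log2 value of 7.717, a signal of 194, and 25 of the 27 did. limma called 0 of these 25 at a Benjamini-Hochberg adjusted p of 0.05 over 22519 probe sets, as it called 0 of all tested probe sets, or 0% (smallest adjusted p = 0.205). An unadjusted p under 0.05 with a negative difference was found for 10 of the 25, against 10.2% of all tested probe sets, and with a positive difference for 0, against 5.79%. The transgenic values lay wholly below the non-transgenic values on 10 of the 25, against 11.8% of all tested probe sets, and wholly above on 0, against 8.3%. These 10 belong to 4 genes, with 4 probe sets of Igf1, 3 of Pappa, 2 of Igfbp3 and 1 of Igfbp7, and probe sets of one gene read the same transcripts and are not independent. The median difference was -1.23 over the 25, of which Igfbp4 holds 6 and Igf1 holds 4, against -0.063 over all tested probe sets. With 1 probe set per gene it was -0.71 over the 8 tested member genes, against -0.021 over all tested genes. In a bulk culture, fewer cells of a type and less RNA per cell cannot be told apart.

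**Figure D1:**
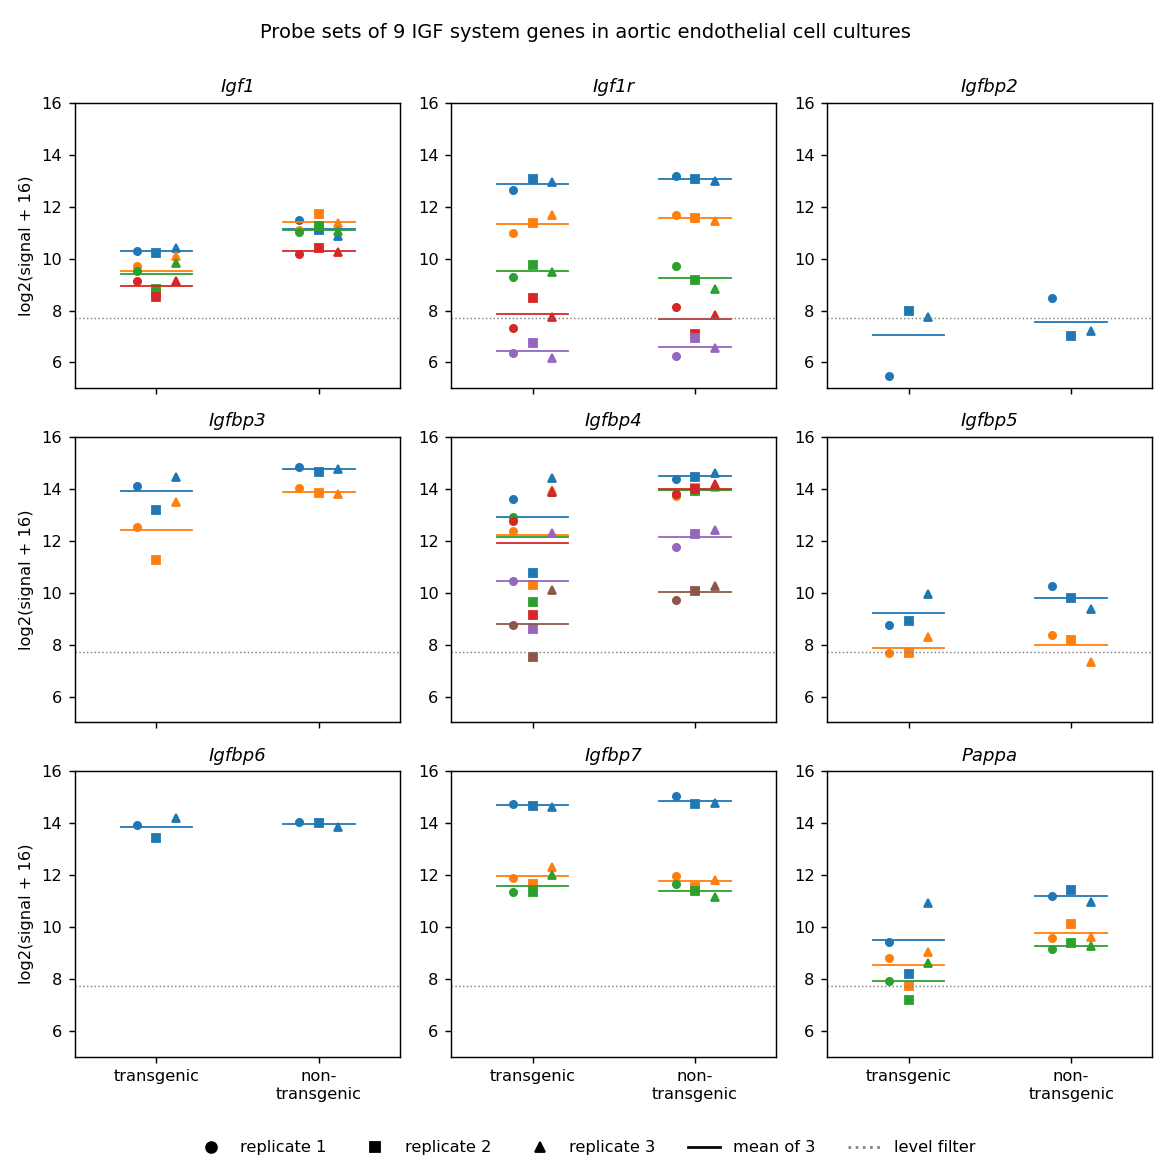
Log2(signal + 16) of all 27 probe sets of the 9 genes, 1 panel per gene and 1 colour per probe set, with the transgenic cultures left of the non-transgenic ones. Symbols are cultures (n = 3 per group), horizontal bars are group means and the dotted line is the level filter at 7.717. All 4 Igf1 probe sets have no overlap between groups, and on Igfbp4 transgenic replicate 2 lies far below all other cultures while transgenic replicate 3 lies at the non-transgenic level.

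The ligand gene Igf1 was the member with the smallest p, and it lay lower in all 3 transgenic cultures on each of its 4 probe sets. On its brightest probe set, 1452014_a_at, the signal was 1237, 1161 and 1339.8 in the transgenic cultures, against 2851, 2190.1 and 1874 in the non-transgenic cultures. The groups did not overlap, and transgenic replicate 3 lay beside the other transgenic cultures and not at the non-transgenic level. The log2 values averaged 10.30 ± 0.10 in the transgenic and 11.16 ± 0.30 in the non-transgenic group (SD, n = 3 each), a difference of -0.86 ± 0.23 (SE), or 1.82-fold lower, with a limma adjusted p = 0.215.

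The other Igf1 probe sets showed larger differences. Probe set 1437401_at gave signals of 821, 398 and 1093 in the transgenic cultures, against 2169.6, 3365 and 2660.2 in the non-transgenic cultures, and a log2 difference of -1.90 ± 0.38 (SE, limma adjusted p = 0.205). Probe set 1434413_at gave 712.5, 436 and 906 in the transgenic cultures, against 2054, 2434 and 2148 in the non-transgenic cultures, and a log2 difference of -1.73 ± 0.30 (SE, limma adjusted p = 0.205). Again no transgenic culture reached the lowest non-transgenic one. Probe set 1419519_at gave 554, 356 and 547 in the transgenic cultures, against 1130.0, 1342 and 1212 in the non-transgenic cultures, and a log2 difference of -1.33 ± 0.26 (SE, limma adjusted p = 0.205). On these 3 probe sets transgenic replicate 3 lay between -1.29 and -1.14 of the non-transgenic mean on the log2 scale. Without it all 4 Igf1 probe sets passed the threshold (limma adjusted p from 0.0041 to 0.032), with differences from -2.20 to -0.91. Without transgenic replicate 2, the lowest culture on all 4, the differences ran from -1.49 to -0.81.

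By the likeness of log2 profiles over the 6 arrays, each gene centred on its mean, the tested genes nearest to Igf1 on its brightest probe set were D630004K10Rik with a root mean square difference of 0.093, Tet3 with 0.13 and Fam216b with 0.15, where the median over all tested genes was 0.53. Tet3 encodes an enzyme that oxidises methylated cytosine. This is a description of 6 arrays. Since all 8 member genes with a tested brightest probe set had negative differences, no member on the higher side was taken for such a search.

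The receptor gene Igf1r showed no such separation. On its brightest probe set, 1428967_at, the signal was 6444, 8562 and 7943 in the transgenic cultures, against 9402, 8529.9 and 8083 in the non-transgenic cultures. Transgenic replicates 1 and 3 lay below the non-transgenic cultures and replicate 2 lay between them. The groups thus overlapped, and the log2 difference was -0.19 ± 0.16 (SE, limma adjusted p = 0.564). Probe set 1452982_at differed by -0.22 ± 0.23 (SE), and 1426565_at and 1452108_at went the other way at 0.27 ± 0.30 and 0.18 ± 0.39. The fifth probe set, 1446303_at, had signals from 56.4 to 91.6 in the transgenic and from 60.2 to 106.7 in the non-transgenic cultures and was under the level filter. The log2 ratio of Igf1 to Igf1r within each array, on the brightest probe sets, was -2.37, -2.87 and -2.55 in the transgenic cultures, against -1.72, -1.95 and -2.10 in the non-transgenic group. The groups did not overlap in this ratio, and since different probe sets bind with different strength only its change between arrays can be read.

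Igfbp3 encodes the main IGF carrier of the blood. Its brightest probe set, 1423062_at, had signals of 17945, 9422 and 22831 in the transgenic cultures, against 29369, 26112 and 27965 in the non-transgenic cultures. All 3 transgenic cultures lay below all non-transgenic ones, with replicate 3 the nearest to them. The log2 difference was -0.82 ± 0.28 (SE), or 1.77-fold lower, with a limma adjusted p = 0.253. The second probe set, 1458268_s_at, had signals of 5867, 2442.5 and 11606 in the transgenic cultures, against 16837, 14694 and 14405 in the non-transgenic cultures, and differed by -1.47 ± 0.47 (SE, limma adjusted p = 0.237). By the array maker's naming, an ending in s or x marks probes that can also bind other transcripts. Without transgenic replicate 3 both Igfbp3 probe sets passed, at -1.09 and -2.01 (limma adjusted p = 0.016 and 0.0059), and without transgenic replicate 2 they were at -0.46 and -0.89.

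Igfbp4 encodes a binding protein that inhibits IGF action and is the best known substrate of the Pappa protease. Its 6 probe sets showed one pattern, in which transgenic replicate 2 was very low, replicate 1 was lower and replicate 3 was at the non-transgenic level. On the brightest, 1437405_a_at, the signal was 12612, 1735 and 21799.6 in the transgenic cultures, against 21315, 22686 and 25301 in the non-transgenic cultures. The third transgenic culture lay inside the non-transgenic range, so the groups overlapped. The log2 values averaged 12.94 ± 1.91 in the transgenic and 14.49 ± 0.13 in the non-transgenic group (SD, n = 3 each), and the difference of -1.56 ± 0.78 (SE) had a limma adjusted p = 0.360.

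Over all 6 Igfbp4 probe sets transgenic replicate 2 lay between -4.84 and -2.49 of the non-transgenic mean on the log2 scale, and replicate 1 between -1.69 and -0.87. Replicate 3 lay between -0.11 and 0.16 of that mean and inside the non-transgenic range on each of the 6. The largest departure was on 1437406_x_at, with a signal of 555 in the second transgenic culture, against 14248, 16411 and 18642 in the non-transgenic group. The group differences ran from -2.06 to -1.24 (limma adjusted p from 0.312 to 0.360). Without transgenic replicate 3 all 6 passed, at -3.04 to -1.89 (limma adjusted p from 0.010 to 0.040), and without transgenic replicate 2 they were at -0.77 to -0.47.

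Pappa lay lower in the transgenic cultures on all 3 of its probe sets with no overlap. The brightest, 1432591_at, had signals of 674, 274 and 1906 in the transgenic cultures, against 2306, 2757 and 1980.0 in the non-transgenic cultures. Here transgenic replicate 3 lay just under the lowest non-transgenic culture, while replicates 1 and 2 were far below. The log2 difference was -1.69 ± 0.59 (SE), or 3.22-fold lower, with a limma adjusted p = 0.257. Probe set 1427633_a_at had signals of 437, 194 and 512 in the transgenic cultures, against 740.2, 1084 and 759.5 in the non-transgenic group, a log2 difference of -1.23 ± 0.38 (SE, limma adjusted p = 0.235). Probe set 1432592_at had 225, 131 and 375 in the transgenic cultures, against 555, 659.6 and 606 in the non-transgenic cultures, a log2 difference of -1.37 ± 0.37 (SE, limma adjusted p = 0.215). On these 2 probe sets replicate 3 lay at -0.71 and -0.67 of the non-transgenic mean on the log2 scale. Without transgenic replicate 3 the 3 probe sets passed at -2.39 to -1.49 (limma adjusted p from 0.0055 to 0.026), and without transgenic replicate 2 they were at -1.02 to -0.82.

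The other binding proteins overlapped between the groups on most probe sets. Igfbp5, a binding protein that also attaches to extracellular matrix, had signals of 415, 471 and 986 in the transgenic group on 1452114_s_at, against 1198, 887 and 649.5 in the non-transgenic group. The third transgenic culture was within the range of the non-transgenic ones, and the log2 difference of -0.60 ± 0.39 (SE) had a limma adjusted p = 0.456. Its second probe set, 1422313_a_at, differed by -0.088 ± 0.36 (SE). Igfbp6, which binds IGF2 in preference to IGF1, had signals of 15474, 11054 and 19048 in the transgenic cultures, against 16968, 16515 and 14972 in the non-transgenic cultures on its 1 probe set. The transgenic cultures lay below, inside and above the non-transgenic range, at a log2 difference of -0.12 ± 0.19 (SE).

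Igfbp7, a secreted relative that binds IGF weakly, had signals of 27596.5, 26102.5 and 25538 in the transgenic cultures, against 33769, 27642 and 28446 in the non-transgenic cultures on its brightest probe set, 1423584_at. The groups did not overlap, but the log2 difference was only -0.18 ± 0.11 (SE, limma adjusted p = 0.428), and the other 2 probe sets went the opposite way at 0.17 ± 0.23 and 0.16 ± 0.25. Igfbp2, read by 1454159_a_at alone, had signals of 28.5, 235 and 200.3 in the transgenic cultures, against 343, 112.0 and 132 in the non-transgenic group. The groups overlapped, and the probe set was not tested because its mean was under the level filter.

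**Figure D2:**
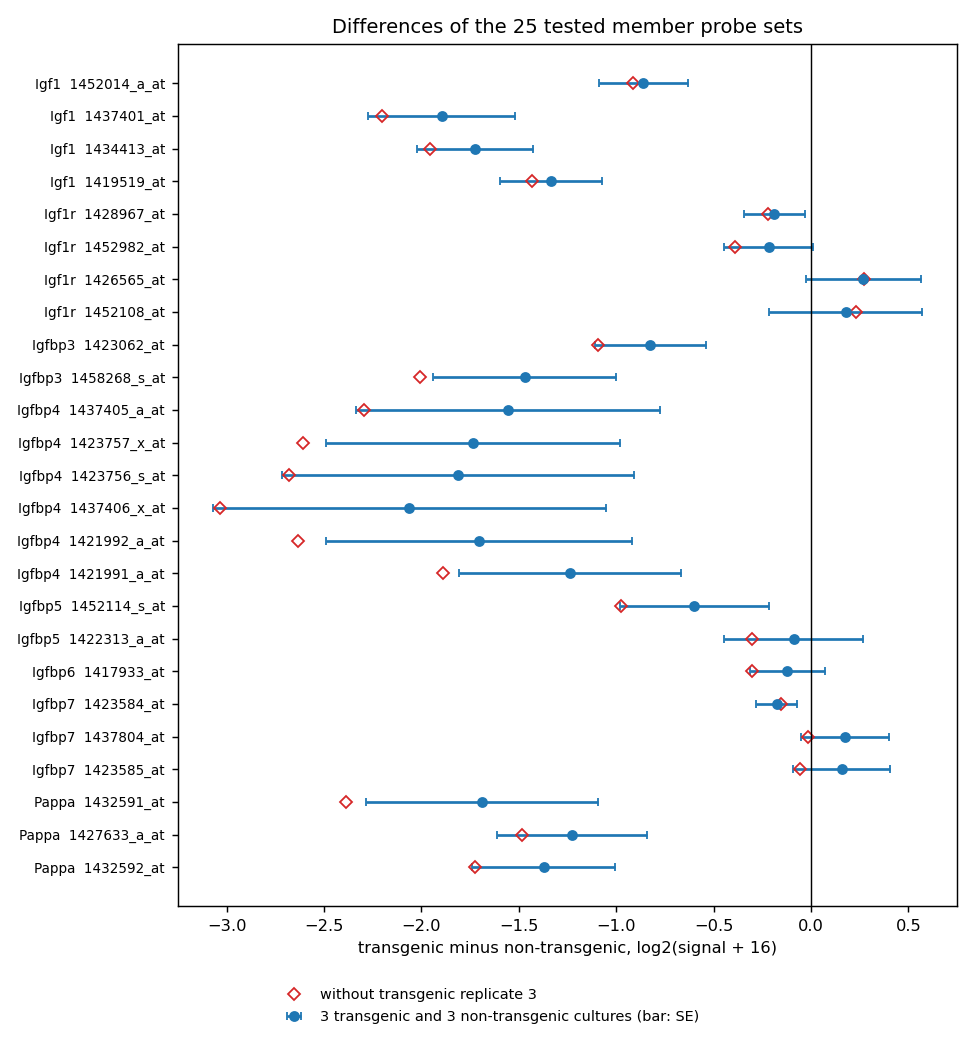
Transgenic minus non-transgenic difference in log2(signal + 16) for each of the 25 tested probe sets (filled circles, bars are limma standard errors, n = 3 per group) and without transgenic replicate 3 (open diamonds). The probe sets of Igf1, Igfbp3, Igfbp4 and Pappa lie at -0.82 or lower, and those of Igf1r, Igfbp6 and Igfbp7 lie between -0.22 and 0.27.

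Culture by culture, transgenic replicates 1 and 2 each lay below the whole non-transgenic range on 19 of the 25 probe sets, where 39.5% and 43.3% of all tested probe sets did so. Transgenic replicate 3 lay below it on 11, inside it on 11 and above it on 3, against 30.5% of all tested probe sets below. Transgenic replicate 2 was the lowest of the 6 arrays on 16 of the 25, against 28.9% of all tested probe sets. Without transgenic replicate 3, limma called 15 of the 25 lower and 0 higher, against 10.7% and 7.2% of all tested probe sets. The count with no overlap was then 18, against 30% of all tested probe sets, and it was 11 without transgenic replicate 2, against 15.5%. With 1 probe set per gene, 8 of the 9 genes were tested among 11208 genes, limma called 0 of the 8 (adjusted p from 0.428 to 0.804), and 4 of the 8 lay lower with no overlap, against 6.72% of all tested genes. Without transgenic replicate 3, limma called Igf1, Igfbp3 and Pappa at this level, 3 genes, against 7.83% of all tested genes on the lower side.

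Among the lists of markers of other cells and of cell cycle genes, the summed signal separated the groups for the adipocyte markers only. The summed signal of 10 adipocyte markers was 50339, 28456 and 52919 in the transgenic cultures, against 99113, 64833 and 66371 in the non-transgenic cultures, so the groups did not overlap and the sum was lowest in transgenic replicate 2. Of these markers 8 had means above the level filter, Lep and Pck1 were under it on every array, and 0 were listed at 0 on all arrays. The sum rests mostly on Fabp4 and Lpl, whose mean log2 values were highest, at 14.84 and 14.13. Fabp4 on its own overlapped between the groups, at -0.40 ± 0.18 (SE). All 8 tested markers had negative differences, 4 at a limma unadjusted p under 0.05, against 5.02% of all tested genes. Of the 8, 2 lay lower with no overlap, Lpl and Slc2a4, against 6.72%. limma called 0 of the 8, and 4 lower without transgenic replicate 3, against 7.83%. The summed signal of 12 fibroblast markers ran from 140430 to 165639.8 in the transgenic and from 161147 to 182915 in the non-transgenic group, with 0 listed at 0, and the groups overlapped. As a mean over these 12 genes the log2 deviation from the non-transgenic mean was -0.24, -0.55 and 0.0059 in the transgenic cultures. The genes went both ways. At a limma unadjusted p under 0.05, 3 lay lower, Dcn (-1.44), Lum (-1.53) and Postn (-0.73), against 5.02% of all tested genes. Thy1 (0.90) lay higher, against 6.47%. The sums of 8 smooth muscle markers, from 19041 to 32199 in the transgenic and from 16190 to 26756 in the non-transgenic group, overlapped too. So did those of 10 mesothelial and epithelial markers, from 2831 to 8859 in the transgenic and from 2565 to 5611 in the non-transgenic group. Leukocyte and macrophage markers, 14 in all, summed to 10558, 21777 and 3452 in the transgenic cultures, against 3893, 2224 and 3005 in the non-transgenic cultures. As a mean over these 14 genes the log2 deviation from the non-transgenic mean was 0.27, 1.96 and -0.36 in the transgenic cultures, so the sum in replicate 1 rests on few genes. The mean level was above the filter for 3 of the 14, Cd53, Csf1r and Lyz2. Cd53, a membrane protein of leukocytes, had log2 values of 12.65, 13.29 and 8.43 in the transgenic group, against 10.41, 8.60 and 7.74 in the non-transgenic group. Csf1r had 11.03, 10.49 and 10.59 in the transgenic group, against 8.94, 9.06 and 8.61 in the non-transgenic group. It did not overlap, and transgenic replicate 3 lay beside the other transgenic cultures. Lyz2 had 10.37, 12.54 and 9.98 in the transgenic group, against 10.21, 9.25 and 9.98 in the non-transgenic group. The pan-leukocyte marker Ptprc averaged 5.87 in the transgenic and 6.93 in the non-transgenic group on the log2 scale, with no overlap. Of the 14, Ptprc, Adgre1, C1qa, C1qc and Itgam were under the filter on every array, and 0 were listed at 0. The sum of 19 cell cycle genes was 97141, 123455 and 44046 in the transgenic cultures, against 50158, 40201 and 39915 in the non-transgenic cultures. The sums overlapped, with transgenic replicate 3 inside the non-transgenic range. As a mean over these 19 genes the log2 deviation from the non-transgenic mean was 1.83, 2.27 and -0.10 in the transgenic cultures. All 19 had positive differences, 8 at a limma unadjusted p under 0.05, against 6.47% of all tested genes. limma called 0 of the 19, and 19 higher without transgenic replicate 3, against 6.88%. The part of these cells and of cell division in the values of the IGF genes was not tested.

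With the Gapdh 3′ to 5′ ratio as a covariate in limma, the difference of Igf1 was -0.42 ± 0.33 (SE), that of Igfbp3 was 0.029 ± 0.34, that of Igfbp4 was 0.61 ± 1.05 and that of Pappa was -0.018 ± 0.76. Only the sign of Igf1 and, at a value near 0, that of Pappa stayed negative among these 4. The ratio did not overlap between the groups, so the ratio and the transgene cannot be told apart in full. The beta-actin ratio did overlap, at 1.74, 1.40 and 2.21 in the transgenic cultures and 2.17, 2.00 and 1.83 in the non-transgenic cultures. As the covariate in its place it left all 4 negative, with Igf1 at -0.75 ± 0.20, Igfbp3 at -0.53 ± 0.17, Igfbp4 at -0.77 ± 0.53 and Pappa at -1.04 ± 0.29 (SE).

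**Figure D3:**
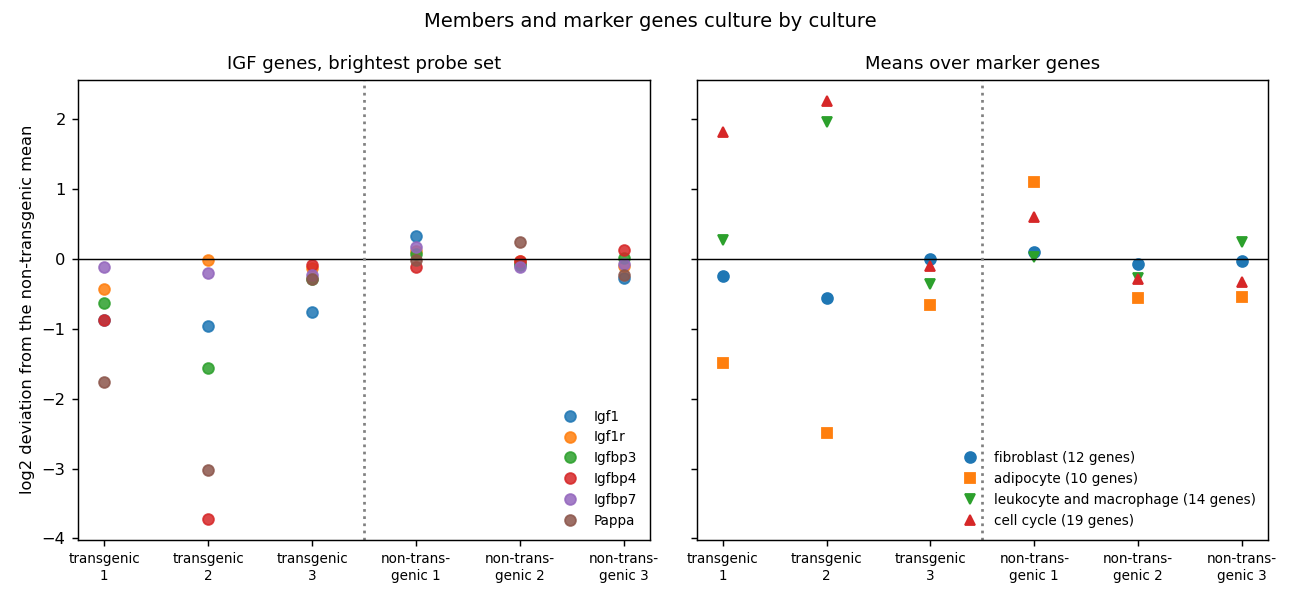
Log2 deviation of each culture from the non-transgenic mean, with transgenic cultures left of the dotted line, for the brightest probe sets of 6 IGF genes (left panel) and as means over marker genes of other cells and of the cell cycle (right panel). Transgenic replicate 3 is at -0.75 for Igf1 and at -0.080 for Igfbp4, and the adipocyte markers are lowest in transgenic replicate 2.

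Beyond the 9 genes, 39 further genes of the system were listed by role, 35 of them had a probe set naming that gene alone, and 30 were tested. Of the 30, 11 had positive and 19 negative differences, with a median of -0.14 against -0.021 over all tested genes, and limma called 0. At an unadjusted p under 0.05, 4 lay lower against 5.02% of all tested genes, and 1 lay higher against 6.47%. The 3 with transgenic values wholly below the non-transgenic ones were Pik3r1, Pdpk1 and Foxo3, against 6.72% of all tested genes, and the 1 wholly above was Igf2bp1, against 9.39%. Foxo3, Igf2bp1, Foxo1 and Htra3 were named after their values were seen. Without transgenic replicate 3, limma called 6 of the 30 lower and 1 higher, against 7.83% and 6.88% of all tested genes.

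The second ligand gene, Igf2, differed by 0.25 ± 0.24 (SE), and Igf2r, the receptor that clears IGF2, by -0.13 ± 0.15. The insulin receptor gene Insr had log2 values of 10.73, 10.77 and 12.11 in the transgenic cultures, against 11.96, 12.25 and 11.96 in the non-transgenic cultures. Transgenic replicate 3 was inside the non-transgenic range, and the difference was -0.85 ± 0.37 (SE, limma adjusted p = 0.435), or -1.30 without that culture (limma adjusted p = 0.0063). Igfbp1, a binding protein of liver, and Igfals, the acid-labile subunit that holds IGF complexes in blood, were under the level filter, as was Pappa2, a protease related to Pappa. Their log2 means were 6.62 in transgenic and 6.87 in non-transgenic cultures for Igfbp1, 5.12 in transgenic and 6.30 in non-transgenic cultures for Igfals, and 6.41 in transgenic and 6.34 in non-transgenic cultures for Pappa2. Esm1, a proteoglycan of activated endothelium with an IGFBP-like domain, had log2 values of 12.21, 13.02 and 11.23 in the transgenic cultures, against 10.66, 11.50 and 10.95 in the non-transgenic cultures. The third transgenic culture was within the non-transgenic range. Esm1 differed by 1.12 ± 0.44 (SE, limma adjusted p = 0.428), by 1.58 without transgenic replicate 3 (limma adjusted p = 0.018) and by -0.23 with the Gapdh ratio as a covariate.

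Of the proteases and their inhibitors, 4 of 4 tested genes had negative differences. Stc1 and Stc2 encode stanniocalcins, secreted inhibitors of the Pappa protease. Stc1 differed by -0.92 ± 0.35 (SE, limma adjusted p = 0.428), or by -1.19 without transgenic replicate 3 (limma adjusted p = 0.037), and Stc2 by -0.38 ± 0.39. Htra1, a secreted serine protease that can cut IGF binding proteins, differed by -0.63 ± 0.46 (SE). Htra1 was at -1.16 without transgenic replicate 3 (limma adjusted p = 0.036) and at -0.16 without transgenic replicate 2. Its relative Htra3 differed by -0.87 ± 0.59 (SE), or by -1.60 without transgenic replicate 3 (limma adjusted p = 0.014), which lay above the non-transgenic range.

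Downstream of the receptor, the p85 subunit gene of PI3-kinase, Pik3r1, had log2 values of 12.50, 12.42 and 13.39 in the transgenic cultures, against 13.78, 13.76 and 13.78 in the non-transgenic cultures. All 3 transgenic cultures lay below, replicate 3 by the least, and the difference was -1.003 ± 0.25 (SE, limma adjusted p = 0.428). The catalytic subunit gene Pik3ca differed by -0.52 ± 0.21 (SE, limma adjusted p = 0.428), and Pdpk1, the kinase that activates AKT, by -0.46 ± 0.17 (SE, limma adjusted p = 0.428). Foxo3, a transcription factor that AKT holds out of the nucleus, differed by -0.20 ± 0.10 (SE). Foxo1, a related factor under the same control, had log2 values of 10.53, 10.33 and 12.77 in the transgenic cultures, against 12.15, 12.20 and 11.95 in the non-transgenic group. Transgenic replicate 3 lay above the non-transgenic range and the others below it, and the difference was -0.89 ± 0.58 (SE), or -1.67 without replicate 3 (limma adjusted p = 0.0040). The insulin receptor substrate genes Irs1 and Irs2 differed by -0.43 ± 0.27 and -0.46 ± 0.35 (SE), and the adaptor gene Grb10 by -0.034 ± 0.12. Of the 7 adaptors 3 had positive and 4 negative differences, and of the 13 tested PI3-kinase, AKT and mTOR genes 4 were positive and 9 negative. Igf2bp1, which encodes a protein that binds IGF2 mRNA, differed by 0.69 ± 0.31 (SE).

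**Figure D4:**
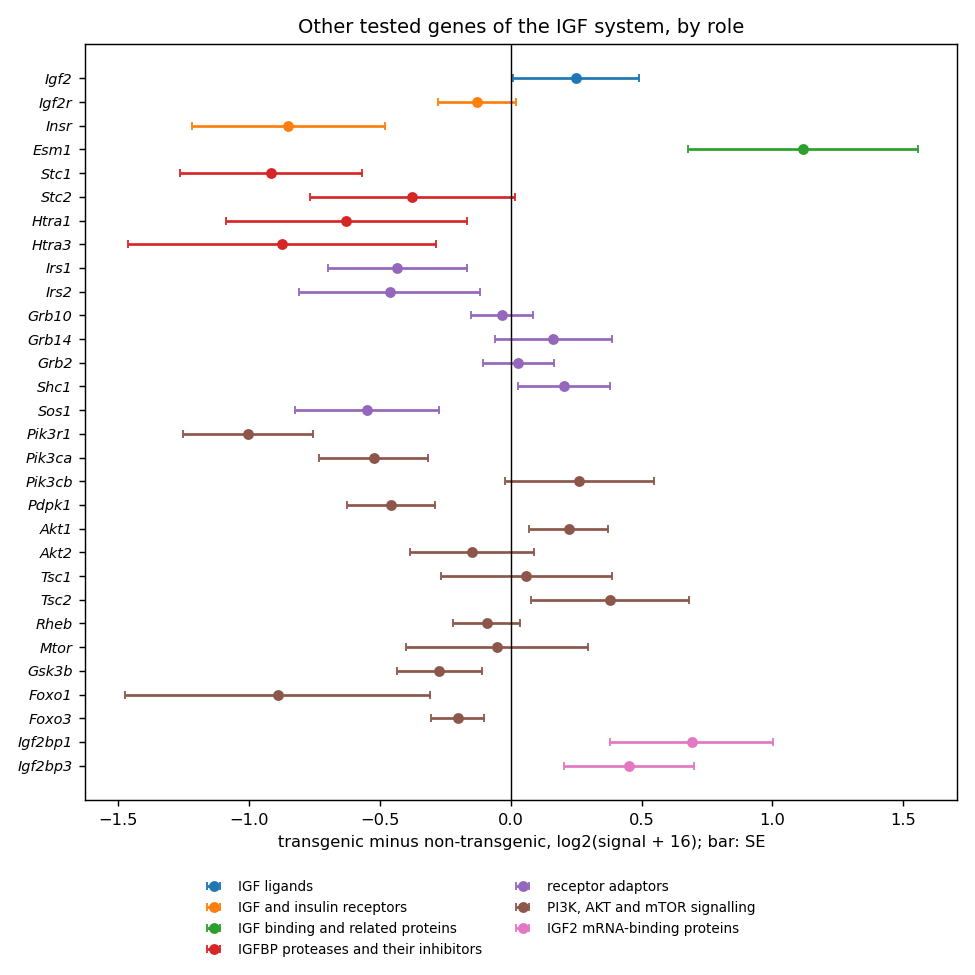
Transgenic minus non-transgenic difference in log2(signal + 16) for the 30 other tested genes of the IGF system, coloured by role, with limma standard errors as bars (n = 3 per group). Pik3r1 lies lowest at -1.003 and Esm1 highest at 1.12, and none of the 30 passed the adjusted threshold.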

How the data were processed

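RNA of 6 aortic endothelial cell cultures, 3 transgenic and 3 non-transgenic by their titles, was amplified in 2 steps from about 50 ng and hybridized to 1 array each, per the labels. The deposited value is an intensity for each probe set on each array. The submitters' processing notes name MAS5, with no version. The table held 45101 probe sets, 64 of them controls. Array annotation named 1 gene for 34945 probe sets, and symbols were updated by gene identifier for 34741 with RefSeq (GRCm38.p6). Values were log2(intensity + 16). limma 3.58.1 in R 4.3.3 (lmFit, eBayes with a trend, two-sided, Benjamini-Hochberg adjustment at 0.05) was fitted over all 22519 probe sets whose mean reached the median of non-control probe sets. A second fit used the brightest probe set of each of 11208 genes. SEs are limma's moderated ones, from the probe set fit for the 9 genes and from the gene fit for other genes and for fits with a covariate. The procedure was tested on simulated data.

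All probe sets of the 9 genes are named. Of other IGF genes, 12 set by a rule and those with an unadjusted p under 0.05 are given, and 4 more were named after their values were seen. The genes, lists, tests and alternatives were chosen with earlier results of these data known. The number of arrays limits the precision.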

Additional observations from a re-analysis of the deposited data

How the results depend on the processing

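The count of IGF genes called by limma was 0 in the main fit, which tested 8 of the 9. A filter at the 75th percentile left Igfbp5 and Pappa untested too. The count stayed 0 with pseudocounts of 1 and 64, and with no filter or the filter at the 75th percentile. It stayed 0 with quantile normalization or median centring, without the variance trend and with a robust prior. It was also 0 with either control ratio as a covariate and with each gene's probe sets averaged. It was 6 with estimated array weights, a fit that called 5504 of all 11208 genes, and it ran from 0 to 3 when single arrays were left out. The count of IGF probe sets called was 18 with array weights, where 11078 of all 22519 were called, and ran from 0 to 15 when single arrays were left out. Both counts above 0 without an array came from leaving out transgenic replicate 3. The count of probe sets lower with no overlap ran from 11 to 18 without transgenic replicate 2 or 3, alternatives chosen after seeing the data. Quantile normalization moved the median difference of all tested genes to 0.010, against -0.021.

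Samples with the same replicate number did not deviate together (correlations over genes of 0.042, -0.28 and -0.034). Samples with different numbers gave correlations from -0.16 to 0.31. With 3 arrays per group these values cannot settle whether the number marks a shared preparation. With the replicate block the 2 counts were 0 and 0, and the differences of Igf1, Igfbp3 and Pappa had a limma adjusted p = 0.459 each.

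Under the Gapdh covariate the sign turned for Igfbp3 (0.029), Igfbp4 (0.61), Igfbp5 (0.39), Igfbp6 (0.44), Htra1 (0.14), Htra3 (0.91), Foxo1 (0.55), Irs2 (0.43) and Esm1 (-0.23), and with the beta-actin ratio for Igfbp6 (0.074). Averaging each gene's probe sets turned it for Igfbp7 (0.052) and Stc2 (0.026). Grb10 was at 0.021 with quantile normalization and at 0.16 with array weights, and averaging its probe sets gave -0.53. When single arrays were left out, the difference ran from -0.30 to 0.090 for Igfbp6, from -0.64 to 6e-04 for Stc2 and from -0.11 to 0.065 for Grb10. The cause of these turns was not tested. Igf1 stayed negative under all 13 other settings, from -1.45 with the mean of its probe sets to -0.42, and from -0.997 to -0.70 when single arrays were left out.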
